A study of Mus musculus with 4 samples.

Results

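The genes described here are 10 scavenger receptors and related proteins that handle modified lipoproteins, out of 31253 genes in the count matrix. They were chosen by name, as a family and with earlier results of these data known, and all 10 were found in the matrix: Marco, Msr1, Colec12, Cd36, Scarb1, Scarb2, Cd68, Lrp1, Stab1 and Cd5l. The cells are viable peritoneal cells sorted for F4/80, the macrophage surface marker whose gene is Adgre1, from mice aged 24 weeks. The labels give 4 groups with 1 sample each. One group was Apoe-/- mice on a high-fat diet (21% fat and 0.15% cholesterol, for 20 weeks from the age of 4 weeks) that received 3 mg of anti-CVI-mAb, a monoclonal antibody against collagen VI, in 200 µL into the peritoneal cavity at week 21. Another was Apoe-/- mice on the same diet with 200 µL of buffer, and the other two were Apoe-/- mice and C57BL/6 mice on normal diet, given an equal volume of buffer. Normal diet replaced the high-fat diet before the first immunization. The labels do not say from when week 21 is counted: counted from the start of the diet it would fall after the stated age of 24 weeks, and counted from birth within the diet. Male sex is stated for the Apoe-/- mice of the diet groups. The number of mice in a sample is not stated in the labels used here.

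Scavenger receptors bind lipoproteins whose lipid or protein has been oxidised or acetylated, as well as bacteria and dying cells, and carry them into the cell. Unlike the receptor for native low-density lipoprotein, the class A receptors and Cd36 are not shut off when a macrophage fills with cholesterol, which is why they are known for their part in forming foam cells. In the peritoneal cavity they also clear particles and apoptotic cells. Resident macrophages there are renewed slowly and carry Timd4, the gene of a receptor for phosphatidylserine on dying cells. Folr2, the gene of folate receptor beta, marks resident macrophages of many tissues, and Ccr2, the gene of a chemokine receptor, marks cells recently derived from monocytes.

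Barcodes carried 1 of 4 suffixes, called libraries 1 to 4 here, and nothing in the labels or headers says which sample a suffix stands for. No comparison of genotypes, diets or treatments was therefore made, and no p-value was computed, since cells of 1 library are not replicates. The libraries held 6254, 6765, 6454 and 7338 barcodes and between 40321459 and 78083803 UMIs (counted transcript molecules). Macrophages were barcodes with at least 500 genes, at most 10% mitochondrial UMIs, at least 2 Adgre1 UMIs and no UMI of Cd79a or Cd3e, genes of the B cell and T cell receptor complexes. They numbered 1538, 4218, 4334 and 5017 in libraries 1 to 4, of 3611, 6023, 5311 and 5919 barcodes that passed the gene and mitochondrial limits, with median depths of 8218.5, 12506.5, 13951 and 12903 UMIs. Csf1r, the gene of the receptor for macrophage colony-stimulating factor, stood at 928, 587, 423 and 453 CPM (UMIs per 1000000) in them, and Lyz2, the lysozyme gene of myeloid cells, at 32735 to 59211 CPM. Library 1 stood apart from the others: only 726 of its macrophages were left at a mitochondrial limit of 5%, and 5 B cell genes summed to 139 CPM in its macrophages, against 18.3, 7.51 and 6.67 CPM in libraries 2, 3 and 4. The part of this in the results for library 1 was not tested. Apoe, the gene deleted in 3 of the 4 groups, was at 30.1, 863, 738 and 29778 CPM in macrophages. In cells with Cd79a and no Adgre1 it was at 7.61, 60.0, 75.7 and 1187 CPM. Library 4 was thus far the highest, and C57BL/6 mice were the only group with the gene intact. No label ties a library to a group, so no group was assigned from these values. Barcode sequences found in more than 1 library numbered 52 in all and 11 among macrophages. Intervals in parentheses are exact 95% intervals and cover counting error only.

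Of the 10 genes, 7 had a promoter in the RefSeq table, of assembly GRCm38.p6. The 250 bases before the transcription start are shown for Marco and Stab1, which had the largest median log2 ratios, among members at 20 CPM, between macrophages with and without Timd4, Folr2 or Ccr2, and for Cd5l, the most abundant member. Capitals mark, on either strand, the core sites of PU.1, a transcription factor of myeloid cells, of GATA factors and of MAF factors.
Marco, chr1:120505025-120505274, minus strand: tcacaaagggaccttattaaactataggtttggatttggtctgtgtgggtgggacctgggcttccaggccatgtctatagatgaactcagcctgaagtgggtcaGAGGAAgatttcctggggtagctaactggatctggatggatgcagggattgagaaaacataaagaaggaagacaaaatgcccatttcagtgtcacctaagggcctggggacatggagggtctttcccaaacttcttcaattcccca
Cd5l, chr3:87357631-87357880, plus strand: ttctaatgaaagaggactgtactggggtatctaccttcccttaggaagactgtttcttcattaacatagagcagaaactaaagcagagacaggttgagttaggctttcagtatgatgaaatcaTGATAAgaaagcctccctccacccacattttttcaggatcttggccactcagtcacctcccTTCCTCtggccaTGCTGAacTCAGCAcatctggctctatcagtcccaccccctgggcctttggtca
Stab1, chr14:31168642-31168891, minus strand: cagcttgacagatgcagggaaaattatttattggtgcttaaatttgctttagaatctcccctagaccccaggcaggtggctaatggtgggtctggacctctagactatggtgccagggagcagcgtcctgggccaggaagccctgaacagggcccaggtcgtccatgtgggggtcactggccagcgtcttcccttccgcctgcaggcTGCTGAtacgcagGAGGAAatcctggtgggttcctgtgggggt
The PU.1 core, GAGGAA, was found in 4 of the 7 promoters (these 3 and that of Cd68), and in 23.3% of 32851 promoters of the same length. The MAF core, TGCTGA, was found in 4 of the 7 (Cd5l, Cd36, Scarb2 and Stab1), and in 16.1% of all promoters. The GATA site, TGATAA, was found in that of Cd5l alone, and in 7.94% of all. An AP-1 site (TGANTCA) was found in that of Cd68 alone, and in 6.75% of all promoters. No marked motifs overlapped. For Cd36 and Cd68 the bases just after the start used were found in no GENCODE transcript of the gene. The start behind their windows, and so their matches, is less certain. These matches describe the letters of these windows and say nothing of which factor was bound.

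Every member had a higher level in macrophages than in cells gated on Cd79a with no Adgre1, in every library. Levels in macrophages lay between 2.44 and 1140 CPM. By share of cells Colec12 was less clear, as given below. Cd5l was the highest member in all 4 libraries and Colec12 the lowest. Scarb1 and, outside library 1, Stab1 came next from below, and the other 6 members lay between 103 and 795 CPM. Each UMI stands for 1 captured 3' end, so these levels are not scaled by transcript length. A macrophage thinned at random to 3000 UMIs held a UMI of 4.19, 4.06, 4.20 and 3.91 of the 10 members on average in libraries 1 to 4. In cells gated on Cd79a with no Adgre1, B cells of the same libraries, the average was 0.478, 0.310, 0.3004 and 0.345, and in cells gated on Cd3e it was 0.429, 0.412, 0.465 and 0.328. Thinning left out 85, 55, 24 and 29 macrophages that were shallower than 3000 UMIs.

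Marco, a class A receptor with a collagen-like stalk that binds bacteria and modified lipoproteins, was at 103 (97.5 to 108), 143 (140 to 147), 365 (360 to 370) and 322 CPM (318 to 326) in macrophages of libraries 1 to 4. Libraries 3 and 4 were thus the high ones and no pair of intervals overlapped. Msr1, the class A receptor first known for taking up acetylated lipoproteins, was at 440, 462, 347 and 362 CPM, within 1.33-fold. Colec12, a class A-like receptor with a lectin domain that is better known from endothelium and stroma, was at 13.6, 2.44, 6.19 and 3.22 CPM. Its share of thinned macrophages with a UMI was 3.65, 0.601, 1.67 and 0.882%, against 0.347 and 0.182% of Cd79a cells in libraries 1 and 2. No thinned Cd79a cell of libraries 3 and 4 had a Colec12 UMI, of 263 and 252 cells, which allows shares of up to 1.14 and 1.19%. By exact binomial intervals the upper bounds there were 1.39 and 1.45%, and the intervals of macrophages and Cd79a cells overlapped in libraries 2, 3 and 4. By thinned share Colec12 could thus not be told from free RNA in libraries 2 and 4. In library 3, with 1.31 to 2.10% for macrophages, that depended on which of the 2 bounds is used. By level it stood above them, since the Cd79a cells held 0.895, 0.209, 0 and 0 CPM, the last with upper bounds of 2.04 and 1.94 CPM. Endothelial and mesothelial or stromal markers summed to at most 2.11 and 0.528 CPM in the macrophages.

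**Figure D1:**
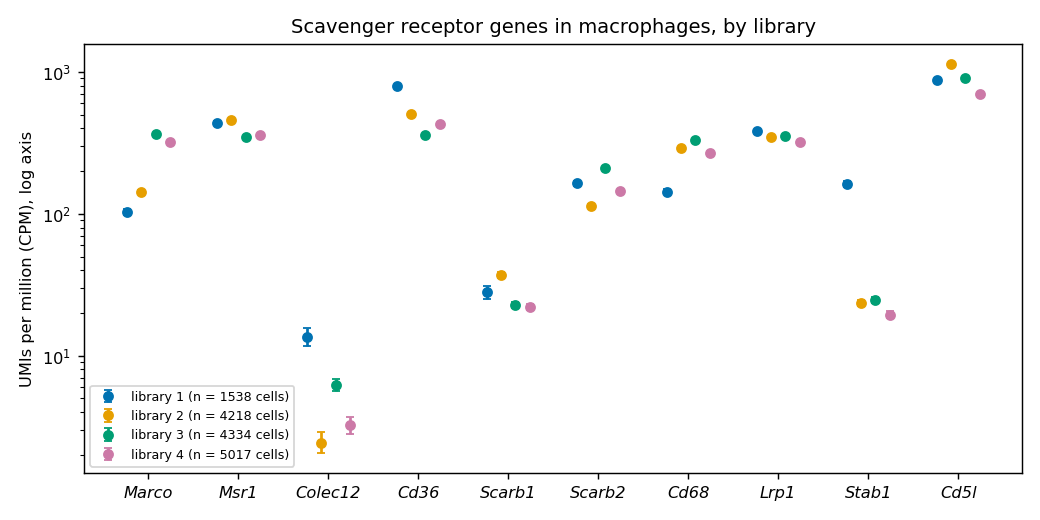
Level of each member in macrophages of libraries 1 to 4, as CPM on a log axis, with exact Poisson 95% intervals; the number of cells is in the legend. Stab1 was at 162 CPM in library 1 and between 19.5 and 24.6 CPM in the others, and Marco was highest in libraries 3 and 4.

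Among class B receptors, Cd36, which binds oxidised lipoproteins and long-chain fatty acids, was at 795, 506, 357 and 427 CPM. Library 1 was highest, and the intervals of the 4 libraries did not overlap. Scarb1, the receptor for high-density lipoprotein that takes up cholesteryl ester without the particle, was at 28.1, 37.1, 22.7 and 22.1 CPM, with libraries 3 and 4 indistinguishable by their intervals (21.5 to 23.9 and 20.9 to 23.2). Scarb2, a lysosomal membrane protein that carries glucocerebrosidase to the lysosome, was at 164, 114, 211 and 145 CPM. Cd68, a heavily glycosylated lysosomal protein in wide use as a macrophage stain, was at 143 CPM in library 1 and at 292, 334 and 268 CPM in libraries 2, 3 and 4. Library 1 was therefore the lowest for Cd68 and the highest for Cd36.

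Lrp1, a large endocytic receptor of the low-density lipoprotein receptor family that takes up remnants carrying apolipoprotein E, was the steadiest member, at 381, 346, 355 and 321 CPM. The intervals of libraries 2 and 3 overlapped (341 to 351.1 and 350.6 to 359.9). Stab1, an endocytic receptor for acetylated lipoproteins and the matrix protein SPARC, was at 162 (155 to 169), 23.5 (22.3 to 24.8), 24.6 (23.4 to 25.8) and 19.5 CPM (18.5 to 20.6). It was 8.31 times as high in library 1 as in library 4, the largest range of the members at 20 CPM. Cd5l, a secreted protein of macrophages with scavenger receptor cysteine-rich domains, known to bind CD36 and to keep macrophages alive, was at 874, 1140, 904 and 697 CPM. In all, 4 members (Marco, Cd36, Stab1 and Cd68) spanned at least 2-fold between libraries, out of 9 that reached 20 CPM in some library. Among 6300 genes at that level 30.7% did so, and the median gene spanned 1.69-fold. Each library is 1 preparation, so no difference between them is tied to a group or tested.

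The share of macrophages with a UMI was above that of Cd79a cells for every member and library, and the intervals of both overlapped only for Colec12. In thinned macrophages, Cd36 was detected in 88.4, 74.8, 63.7 and 69.8%, against 16.1, 5.84, 2.66 and 5.16% of Cd79a cells. Cd5l was detected in 80.2, 87.1, 85.0 and 76.8% of macrophages, against 5.72, 6.20, 6.08 and 6.75% of Cd79a cells. Marco was seen in a smaller share of cells: 8.33, 9.01, 28.8 and 25.2% of macrophages, against 1.39, 1.09, 3.42 and 1.98% of Cd79a cells. Without thinning, the shares for Marco were 14.4, 15.6, 46.7 and 37.6% of macrophages and 6.60, 4.01, 7.07 and 6.88% of Cd79a cells. Cd79a cells were shallower than macrophages in libraries 2 to 4, at medians of 7042, 4848 and 6368.5 UMIs, and deeper in library 1, at 9396 UMIs.

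**Figure D2:**
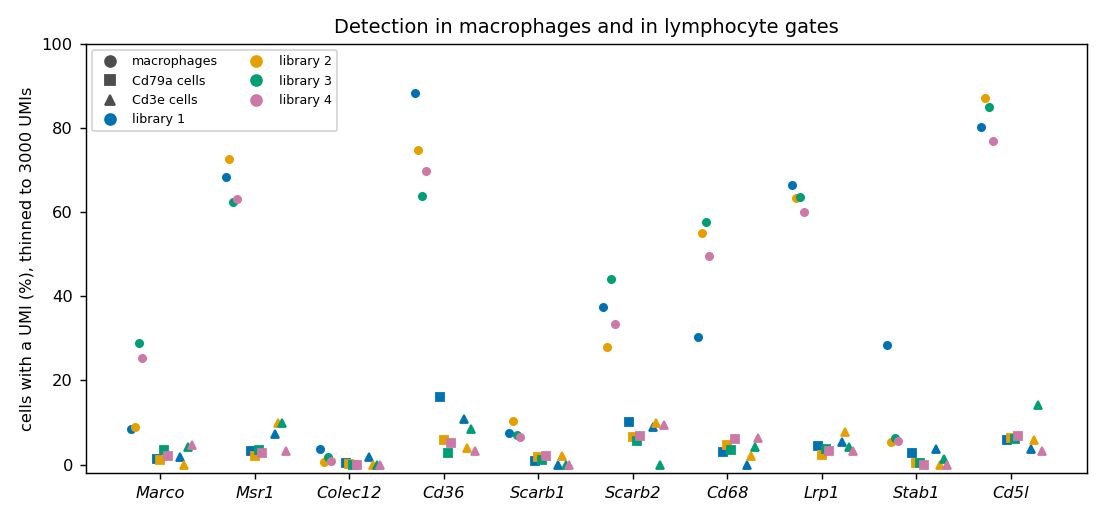
Share of cells (%) with at least 1 UMI of each member after thinning every cell to 3000 UMIs, in macrophages (circles) and in the lymphocyte gates on Cd79a (squares) and Cd3e (triangles) of libraries 1 to 4. Marco and Stab1 were detected in under 30% of macrophages in every library, and Cd5l, Cd36, Msr1 and Lrp1 in 60.1% or more.

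Marco was the most unevenly spread member. Its variance over thinned macrophages was 6.84 to 11.9 times its mean, whereas the median gene had a ratio of 1.03 to 1.06 and 95% of 4514 genes lay below 1.36 to 1.44. The 10% of macrophages with most Marco held 100, 100, 70.4 and 75.3% of its UMIs in libraries 1 to 4, and single thinned cells reached 31, 46, 49 and 38 UMIs. In libraries 1 and 2 only 8.33 and 9.01% of macrophages held a Marco UMI, so the 100% was fixed there. Scarb1, with variances of 0.969 to 1.07 times its mean, reached 97.0 to 100% as well, so that low detection alone can give such shares. For Cd5l the ratio was 1.95 to 2.96, for Stab1 1.09 to 1.96 and for Cd36 1.25 to 1.48. The other members had ratios of 0.969 to 1.31. Most thinned macrophages thus held no Marco UMI and a few held many, while Msr1, Lrp1 and Scarb2 had ratios of 1.12 to 1.31. These lower ratios were still above those of most genes: Msr1 lay above 91.2 to 93.5% of genes, Lrp1 above 82.5 to 90.4% and Scarb2 above 78.4 to 92.2%. Scarb1, at a lower level, lay above 59.5, 74.5, 33.8 and 1.02% of genes in libraries 1 to 4. The genes were not matched by level, so these ranks may reflect level as well.

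Macrophages were then split by 3 gates on UMIs per cell: Timd4 at 3 or more, Folr2 at 2 or more and Ccr2 at 3 or more. Timd4-positive cells were 7.93, 12.8, 47.7 and 52.9% of macrophages in libraries 1 to 4, Folr2-positive cells 55.5, 22.6, 7.41 and 6.04%, and Ccr2-positive cells 10.99, 19.0, 3.32 and 5.68%. A cell may pass more than 1 gate, and Timd4 and Folr2 together were passed by 47, 132, 132 and 139 cells. A gate counts UMIs, and positive cells were deeper: medians were 8846 to 14754 UMIs in Timd4-positive and 8110.5 to 13340 in Timd4-negative cells. Levels were therefore compared as CPM, with the gate gene left out of the totals. A member was past the rule of size when it reached 20 CPM in the higher set and differed by 1 or more on the log2 scale, with 1 sign, in every library.

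Timd4-positive macrophages held much more Marco. It was at 603, 609, 498 and 444 CPM in Timd4-positive cells of libraries 1 to 4, against 56.4, 61.6, 224 and 160 CPM in Timd4-negative cells. The levels of the positive cells were close to each other and those of the negative cells were not, and the groups did not overlap. The ratios on the log2 scale were 3.42 (3.26 to 3.57), 3.30 (3.24 to 3.37), 1.15 (1.11 to 1.19) and 1.47 (1.43 to 1.52). Marco was the 1 member of 9 at 20 CPM that was past the rule on the higher side, and 0 were past it on the lower side; over 4691 genes the rule took 0.0426% and 0.0853%. The only other gene past it on the higher side was Cdkn2a, the gene of cell cycle inhibitors, named after its value was seen. With the gate set on thinned counts the ratio in library 3 was 0.84, and with the mean of per-cell CPM 0.99, so that Marco fell short of the rule there. By share of cells, a Marco UMI was found in 38.8, 33.5, 39.6 and 33.1% of thinned Timd4-positive cells and in 5.56, 5.35, 18.9 and 16.3% of Timd4-negative cells. Timd4-positive cells carried 49.9, 63.5, 70.2 and 78.7% of all Marco UMIs of macrophages, and 8.52, 15.0, 51.5 and 57.1% of all UMIs.

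Smaller differences of 1 sign accompanied it. Cd5l was at 1546, 1952, 1042 and 816 CPM in Timd4-positive cells, against 812, 997, 757 and 538 CPM in Timd4-negative cells, log2 ratios of 0.93, 0.97, 0.46 and 0.60. Positive cells were higher within each library, although those of library 4 lay below the negative cells of library 2. Scarb2 was at 251, 196, 243 and 160 CPM in Timd4-positive cells, against 156, 99.9, 178 and 125 CPM in negative cells. Lrp1 and Cd68 had log2 ratios of 0.18 to 0.37 and of 0.13 to 0.38. In all, 5 of the 9 members were higher in Timd4-positive cells of every library at any size, beside 24.1% of genes, and 0 were lower in every library, beside 12% of genes. Colec12 had positive ratios too (2.09, 0.89, 0.69 and 1.03), but reached 20 CPM only in library 1, with 45.2 CPM in Timd4-positive and 10.6 CPM in Timd4-negative cells. For Cd36, Msr1, Scarb1 and Stab1 the sign differed between libraries, with ratios within -0.71 to 0.24. The median log2 ratio of the 9 members was 0.27, and that of all genes 0.03. Gata6, the transcription factor of large peritoneal macrophages, was at 123, 108, 140 and 143 CPM in Timd4-positive cells, against 48.6, 56.8, 116 and 123 CPM in Timd4-negative cells. Besides Timd4 itself, 5 of 7 other large peritoneal macrophage markers at 20 CPM were higher in Timd4-positive cells of every library and 0 were lower. Adgre1, on which the macrophages were chosen, was at 1309, 835, 1139 and 988 CPM in Timd4-positive cells, against 748, 511, 815 and 753 CPM in negative cells.

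**Figure D3:**
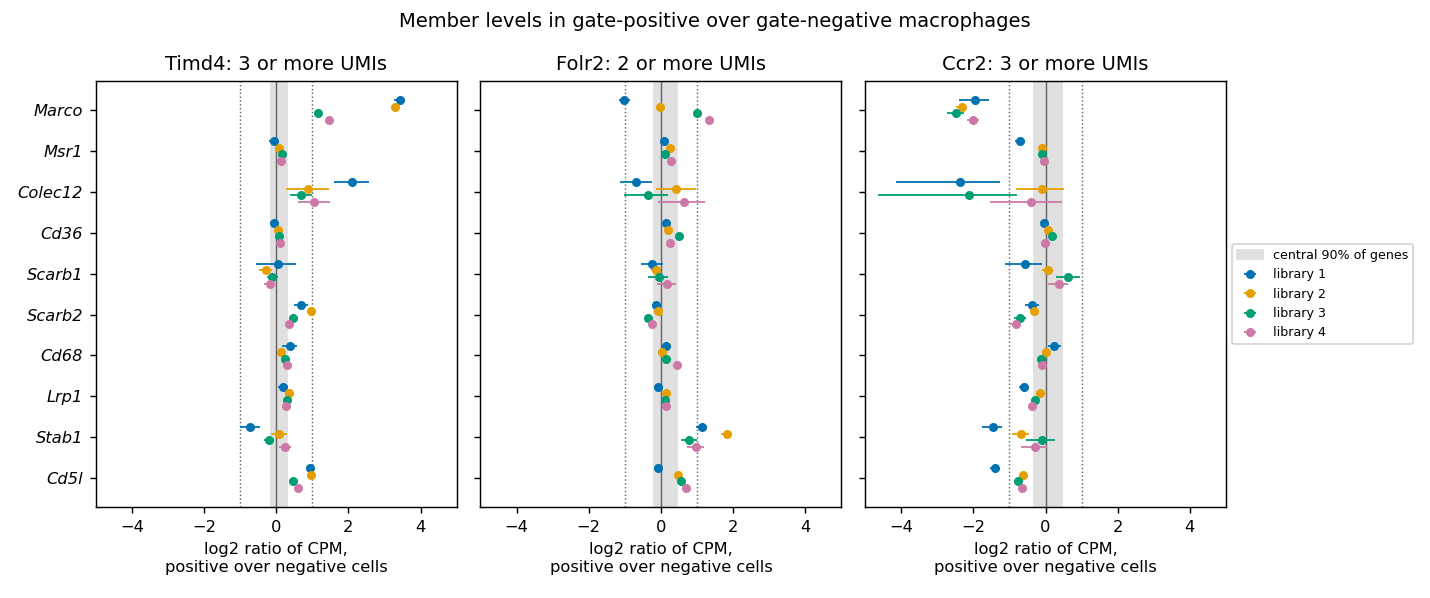
Log2 ratio of CPM in gate-positive over gate-negative macrophages for each member, in 3 panels for the Timd4, Folr2 and Ccr2 gates; points are libraries 1 to 4, bars are exact 95% counting intervals, dotted lines mark the rule of size and the grey band holds the central part of all genes' median ratios. Marco lay at 1.15 to 3.42 for Timd4 and at -2.49 to -1.96 for Ccr2, and Stab1 at 0.79 to 1.82 for Folr2.

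When cells were thinned to an equal depth, Marco rose from step to step of Timd4 UMIs in libraries 1, 2 and 4, but not at each step in library 3. In library 1, Marco was at 46.8, 221, 743 and 1592 thinned CPM in cells with 0, 1, 2 and at least 3 Timd4 UMIs (1288, 77, 48 and 40 cells). In library 2 the values were 80.8, 423, 827 and 997.5 thinned CPM. In library 3 they were 254, 463, 453 and 528, and in library 4 219, 362, 420 and 448 thinned CPM. Libraries 1 and 2 thus had steep steps, whereas in libraries 3 and 4 most of the step lay between 0 and 1 Timd4 UMI. The intervals at 2 and at least 3 Timd4 UMIs overlapped in libraries 2, 3 and 4. Cells without a thinned Timd4 UMI thus held more Marco in libraries 3 and 4 than in libraries 1 and 2. In libraries 3 and 4 these cells included some that passed the Timd4 gate before thinning. There 2068 and 2653 thinned cells were Timd4-positive by the gate. Those with 1, 2 and at least 3 thinned Timd4 UMIs numbered 870, 463 and 409 in library 3 and 1077, 644 and 639 in library 4. The part of this in the steps was not tested.

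Folr2-positive macrophages held more Stab1. It was at 206, 50.3, 39.8 and 35.5 CPM in Folr2-positive cells, against 94.1, 14.2, 23.1 and 18.2 CPM in Folr2-negative cells. Positive cells were higher in each library, although Folr2-negative cells of library 1 exceeded the positive cells of the other libraries. Ratios on the log2 scale were 1.13 (0.99 to 1.28), 1.82 (1.66 to 1.98), 0.79 (0.57 to 0.99) and 0.97 (0.73 to 1.19). As these fell short of 1 in libraries 3 and 4, 0 of 9 members were past the rule of size, on either side, beside 0.0824% of 4854 genes on the higher and 0.0618% on the lower side. Within Timd4-negative cells the ratios were 1.16, 1.96, 1.01 and 1.11, which are past the rule; this split was added after the values had been seen. At a mitochondrial limit of 5% Stab1 was past the rule as well, at 1.47, 1.95, 1.06 and 1.02. In thinned cells of library 1, Stab1 was at 103, 168, 221 and 272 CPM with 0, 1, 2 and at least 3 Folr2 UMIs, and in library 2 at 14.6, 41.4, 69.9 and 84.8 CPM. In libraries 3 and 4 only 35 to 61 cells filled each of the steps at 2 and at least 3 UMIs, and their intervals overlapped that of cells with none.

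**Figure D4:**
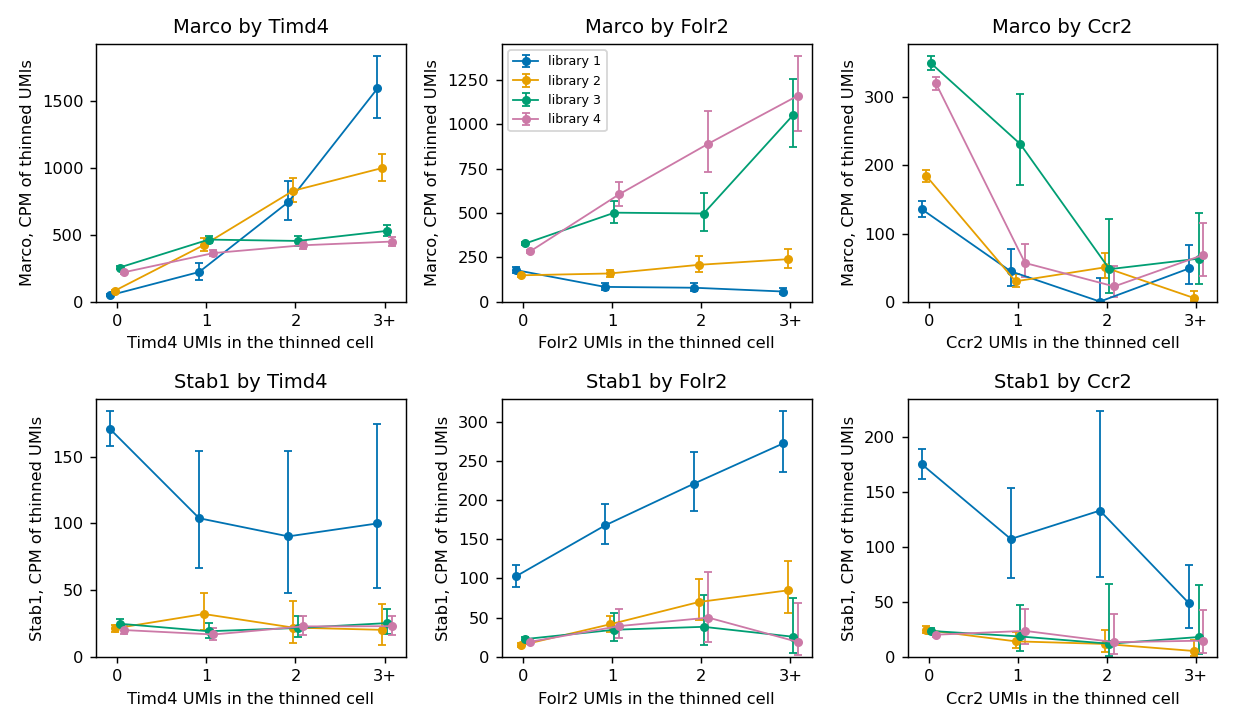
Marco (upper row) and Stab1 (lower row) in macrophages thinned to 3000 UMIs, as CPM of thinned UMIs with exact Poisson 95% intervals, against the number of Timd4, Folr2 or Ccr2 UMIs in the thinned cell (left to right), for libraries 1 to 4. Marco was higher in cells with a Timd4 UMI than in cells with none in every library, and against Folr2 its slope had opposite signs in library 1 and in libraries 2, 3 and 4.

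Marco moved with Folr2 in opposite directions in different libraries. It was at 73.4, 141, 676 and 727 CPM in Folr2-positive cells, against 149, 144, 336 and 289 CPM in Folr2-negative cells. Positive cells were the lower ones in library 1, equal within counting error in library 2, and the higher ones in libraries 3 and 4, and the log2 ratio stood at -1.02 (-1.17 to -0.86), -0.03 (-0.11 to 0.04), 1.01 (0.96 to 1.06) and 1.33 (1.28 to 1.38). Among Timd4-negative cells the ratios were -1.505, 0.37, 1.26 and 1.24, so library 1 and libraries 3 and 4 stood at least as far apart there. Among Timd4-positive cells they were 0.15 (-0.07 to 0.37), -0.47, 0.96 and 1.47. In cells that passed both gates Marco was at 635, 476, 899.5 and 1096 CPM. Cells that passed the Folr2 gate alone held 36.9, 88.3, 516 and 400 CPM, and cells that passed none held 116, 70.2, 210 and 159.5 CPM. At equal depth library 2 was not flat. With 0, 1, 2 and at least 3 Folr2 UMIs its thinned cells held 148 (141 to 156), 159, 207 (167 to 255) and 239 CPM (190 to 298) of Marco.

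Of the members besides Stab1 and Marco, Cd5l had the largest median log2 ratio by Folr2, 0.51, with a sign that differed between libraries. Cd36 was at 828, 556, 492 and 502 CPM in Folr2-positive cells, against 745, 488, 345 and 420.5 CPM in Folr2-negative cells. Msr1 and Cd68 also had positive log2 ratios throughout, of 0.07 to 0.28 and of 0.04 to 0.44. With Stab1 this made 4 of 9 members (44.4%) higher in every library at any size, beside 44.1% of genes, so the count is near that of all genes. Scarb2 alone was lower in every library (log2 ratios of -0.35 to -0.07), 11.1% of members beside 8.9% of genes. All genes together were shifted toward the positive cells, with a median log2 ratio of 0.12, and the members' median was 0.18. Relative to the shift of each library the median ratio of Msr1 was 0.07 and that of Lrp1 -0.04. On that scale Msr1 was at -0.04 in library 3, and Cd68 at -0.07 and -0.03 in libraries 2 and 3, so neither kept 1 sign. Cd36 (0.08 to 0.36) and Stab1 (0.63 to 1.71) did. Cd5l had a log2 ratio of -0.07 in library 1 and of 0.48, 0.55 and 0.69 in libraries 2, 3 and 4. In cells that passed both the Timd4 and the Folr2 gate Cd5l was at 1503, 2556, 1582 and 1421 CPM, and in cells that passed no gate at 962, 989, 747 and 540 CPM. The cells of both gates were thus the higher ones in every library. Large peritoneal macrophage markers moved the other way: all 8 were lower in Folr2-positive cells of every library, beside 8.9% of genes, with a median log2 ratio of -0.63. They summed to 4461, 5110.2, 6162 and 5805 CPM in Folr2-positive cells, against 6817, 6527, 9147 and 8976 CPM in Folr2-negative cells, and none was at 0. Their part in the results for this gate was not tested. Of the 8, Ltbp1, the gene of a latent TGF-beta binding protein, was past the rule of size. Among the resident macrophage genes, Lyve1, a hyaluronan receptor, and Cbr2, a carbonyl reductase, were past the rule of size in Folr2-positive cells.

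Ccr2-positive macrophages held little Marco and less Cd5l. Marco was at 29.3, 34.1, 67.0 and 83.9 CPM in Ccr2-positive cells of libraries 1 to 4, against 115, 171, 376.5 and 338 CPM in Ccr2-negative cells. All 4 positive values lay below all 4 negative values. The log2 ratios were -1.96 (-2.39 to -1.58), -2.32 (-2.48 to -2.17), -2.49 (-2.72 to -2.27) and -2.01 (-2.17 to -1.86). In library 1, 1 cell that passed all 3 gates held 44 of the 54 Marco UMIs of the 169 Ccr2-positive cells. The level and ratio of library 1 thus rest mostly on that cell, which its counting interval does not cover. Of 8 members at 20 CPM, Marco was the 1 past the rule on the lower side, beside 0.246% of 4881 genes, and 0 were past it on the higher side, beside 0.102%. In thinned cells a Marco UMI was found in 1.20 (0.145 to 4.26), 2.63 (1.64 to 3.99), 6.94 (3.38 to 12.4) and 7.72% (4.90 to 11.5) of Ccr2-positive cells, against 9.25, 10.5, 29.5 and 26.3% of Ccr2-negative cells. In libraries 1, 2 and 3 the intervals of Ccr2-positive cells overlapped those of Cd79a cells, so that by share Marco could not be told from free RNA there at this depth. Its level in Cd79a cells was 6.27, 5.43, 13.3 and 10.5 CPM. Cells that passed the Ccr2 gate alone had even less Marco, 5.41, 12.9, 11.1 and 20.3 CPM. Their intervals overlapped those of Cd79a cells in libraries 1, 3 and 4, so that by level Marco could not be told from free RNA there. In library 2 the intervals lay apart, with the Ccr2 cells higher. The few cells that passed both the Timd4 and the Ccr2 gate (2, 38, 18 and 20) were at 1607, 291, 204 and 423 CPM. All 44 Marco UMIs behind the value of library 1 came from the cell that passed all 3 gates.

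Cd5l was at 359, 799, 538 and 456 CPM in Ccr2-positive cells, against 957, 1224, 918 and 712.5 CPM in Ccr2-negative cells. The log2 ratios were -1.41 (-1.53 to -1.30), -0.62, -0.77 and -0.64, of which that of library 1 passed a log2 ratio of 1 in size. Scarb2 and Lrp1 were lower as well, with ratios of -0.82 to -0.32 and of -0.59 to -0.14. Msr1 had ratios of -0.70, -0.09, -0.09 and -0.03, so that its difference lay almost wholly in library 1. In all, 5 members were lower in Ccr2-positive cells of every library at any size (Marco, Cd5l, Scarb2, Lrp1 and Msr1), beside 12.1% of genes, and 0 were higher in every library, beside 24% of genes. The median log2 ratio of the 8 members was -0.21, and that of all genes 0.06. Cd36 was at 779, 527, 405 and 425 CPM in Ccr2-positive cells, against 797.5, 500.4, 355.5 and 427 CPM in Ccr2-negative cells, ratios of -0.03 to 0.19. Scarb1 had ratios of -0.57, 0.06, 0.64 and 0.37, and Cd68 of 0.24, 0.01, -0.13 and -0.10.

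Stab1, under 20 CPM in several sets, was at 64.0, 15.7, 22.6 and 15.97 CPM in Ccr2-positive cells, against 178, 25.5, 24.6 and 19.7 CPM in Ccr2-negative cells. Its intervals held 0 in libraries 3 and 4. Colec12 was at 2.71, 2.27, 1.26 and 2.38 CPM in Ccr2-positive cells, against 15.3, 2.48, 6.39 and 3.27 CPM in Ccr2-negative cells, and its intervals held 0 in libraries 2 and 4. Large peritoneal macrophage markers moved with the Ccr2 gate too: all 8 were lower in Ccr2-positive cells of every library, beside 12.1% of genes, with a median log2 ratio of -1.05, and Timd4 and Ltbp1 were past the rule of size. They summed to 2243, 5066, 4602 and 4869 CPM in Ccr2-positive cells, against 5895, 6433, 9061 and 8993 CPM in Ccr2-negative cells, and none was at 0. Their part in the lower Marco and Cd5l was not tested. Dendritic cell markers, 7 genes such as Flt3 and Cd209a, moved with this gate: they summed to 55.3, 6.18, 50.2 and 74.5 CPM in Ccr2-positive cells, against 17.4, 1.83, 7.12 and 6.72 CPM in Ccr2-negative cells. Ccr7 was at 0 in the Ccr2-positive cells of libraries 1 and 4 and the other 6 markers were detected in all. Without cells that carried markers of other cell types, the median log2 ratio of Marco was -2.87, against -2.16 with them.

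Beyond the members, 89 genes in 5 lists around lipoprotein uptake were examined, chosen with earlier results of these data known. They covered other scavenger receptors (14 genes), the lipoprotein receptor family (17), lysosomal cholesterol release and esterification (20), signalling partners (22) and regulators of scavenger receptor genes (16). For Timd4, 0 of 48 genes at 20 CPM were past the rule of size in either direction (beside 0.0426% of all genes higher and 0.0853% lower), and for Ccr2 0 of 51 (beside 0.102% and 0.246%). For Folr2 the count was 1 of 49 (beside 0.0824% and 0.0618%), the transcription factor gene Maf, with log2 ratios of 1.16, 1.16, 1.70 and 1.46 and higher in the positive cells of all 4 libraries. At any size, 15 of the 48 genes (31.2%) were higher in Timd4-positive cells of every library and 7 (14.6%) lower, beside 24.1% and 12% of all genes. For Folr2 23 (46.9%) were higher and 10 (20.4%) lower, beside 44.1% and 8.9% of all genes. For Ccr2 9 (17.6%) were higher and 18 (35.3%) lower, beside 24% and 12.1% of all genes.

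Members were next paired within single thinned macrophages. Of 45 pairs, 36 joined 9 members with a UMI in at least 1% of macrophages in every library, which left out Colec12. For each pair the odds of detecting 1 member with the other were set against the odds without it. The median odds ratio over these pairs and libraries was 1.08, and that of members with any of 4514 genes 1.02. An odds ratio of at least 1.5 in every library was reached by 0 of the 36 pairs, beside 0.175% of 40618 pairs of a member with any gene. 

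The pairs with the highest odds ratios joined Marco with members that were also higher in Timd4-positive cells. Marco and Cd5l had odds ratios of 1.25, 3.26, 2.03 and 1.88, and both were found in 6.95, 8.60, 26.1 and 21.3% of macrophages, beside 6.68, 7.85, 24.5 and 19.4% from the product of the shares. The pair fell short of the rule in library 1 alone, and passed it with a second random draw of the thinned UMIs. Marco and Scarb2 had odds ratios of 1.85, 1.97, 1.45 and 1.20, and Marco and Lrp1 of 1.10, 1.57, 1.498 and 1.29. Cd36 and Msr1, from classes B and A, had odds ratios of 1.32, 1.27, 1.14 and 1.24, and both were found in 40.4 to 61.2% of macrophages. In 10 pairs the odds ratio was above 1 in all 4 libraries, and in 1, Msr1 and Scarb2, it was below 1 in all (0.99, 0.89, 0.99 and 0.88). The last pair was close to 1 in libraries 1 and 3. The share of all pairs of a member with any gene that did so is not given here. The 10 and the 1 are therefore not read as particular to the members. Marco and Stab1 had odds ratios of 0.64 in library 1 and of 1.64, 1.19 and 1.32 in libraries 2, 3 and 4. For the 6 members detected in at least 10% of macrophages of every library, no gene reached a correlation of 0.2 over single cells in every library, so none was named as alike.

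**Figure D5:**
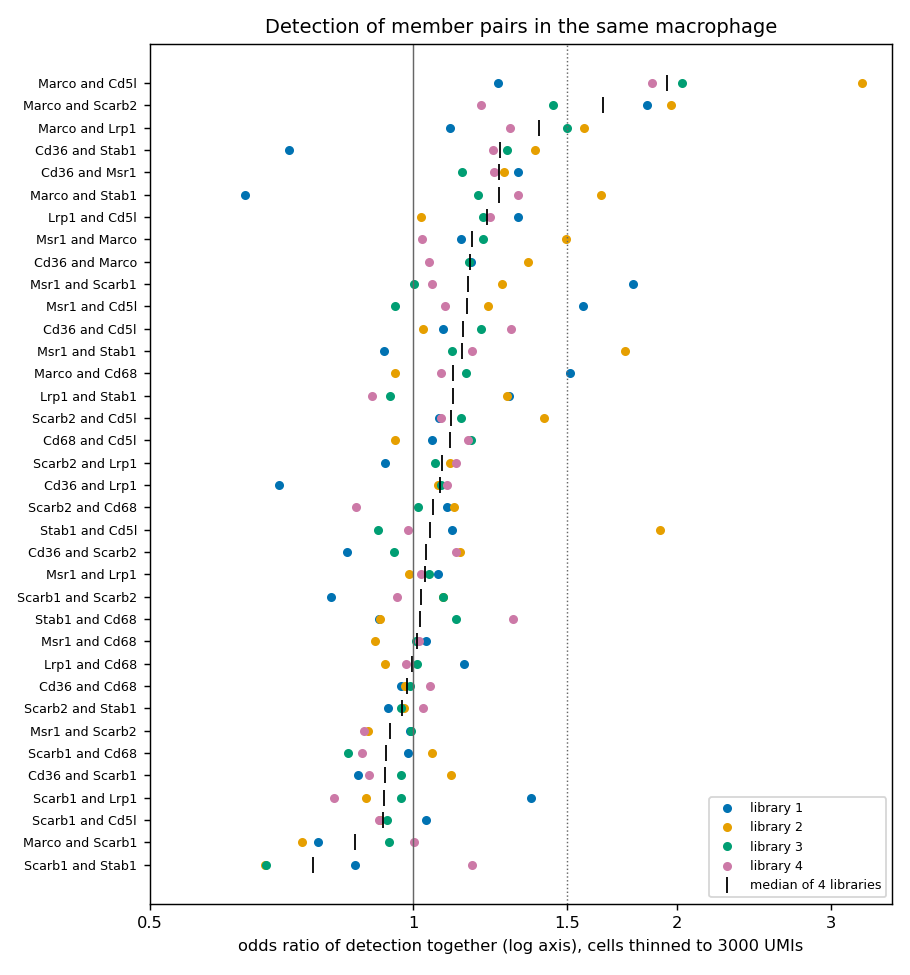
Odds ratio of detection in the same thinned macrophage for the 36 member pairs, on a log axis, ordered by the median over libraries 1 to 4 (black tick). The dotted line at 1.5 is the rule of odds; Marco and Cd5l lay above it in 3 of the 4 libraries.

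By number of members in a thinned cell, Timd4-positive macrophages held 4.90, 4.69, 4.52 and 4.16 of the 10 on average, against 4.13, 3.97, 3.91 and 3.62 in Timd4-negative cells. Folr2-positive cells held 4.25, 4.30, 4.43 and 4.39, against 4.12, 3.99, 4.18 and 3.88 in Folr2-negative cells. Ccr2-positive cells held 3.37, 3.88, 3.67 and 3.34, against 4.30, 4.10, 4.22 and 3.95 in Ccr2-negative cells. Timd4-positive and Folr2-positive cells thus stood higher and Ccr2-positive cells lower in each library, by less than 1 member on average. No such count over other genes was set beside these. All 10 members are protein-coding genes, and in GENCODE M21 on GRCm38 Marco lies at chr1:120474538-120505024 (minus strand), Stab1 at chr14:31139013-31168641 (minus strand) and Cd5l at chr3:87357881-87371073 (plus strand).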

How the data were processed

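Viable F4/80-positive peritoneal cells of 4 samples were profiled with a 10x Genomics 3' kit, per the labels' protocols. The deposited file is a single matrix of UMI counts, not normalized, for 26811 barcodes and 31253 genes. Per the file headers it was made with Cell Ranger 5.0.1; Seurat, CASAVA 1.8 and the build mm10 also appear in the submitters' processing notes. How cells were called, and whether introns were counted or free RNA and doublets removed, was not given in the sources used here. No doublets were called; the deepest 2% of barcodes were left out as an alternative. Of all barcodes 20864 passed the limits on genes and mitochondrial UMIs, and 15107 were macrophages.

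UMIs were summed over positive and negative cells of each library, and CPM were compared as log2 ratios after adding a prior of 0.5 UMI. Intervals are Poisson for levels, Clopper-Pearson for shares and conditional binomial for ratios (counting error only). Thinning used 1 random draw, and a second was an alternative. The ratio step was tested on simulated data. All members are named; genes of the other lists are named where past the rule of size. Members and lists were chosen with earlier results of these data known. Analysis used Python 3.11.15, numpy 2.4.6, scipy 1.17.1, pandas 2.3.3 and matplotlib 3.10.9. Gene positions come from GENCODE M21, counted from 1; promoters from RefSeq. The planned comparison of groups was not made, as no suffix is tied to a sample.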

Additional observations from a re-analysis of the deposited data

Results flagged for a closer look

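Marco in Folr2-positive against Folr2-negative macrophages had log2 ratios of opposite sign in different libraries: -1.02 in library 1 (73.4 CPM in positive and 149 CPM in negative cells) and 1.33 in library 4 (727 CPM in positive and 289 CPM in negative cells). The difference between the libraries was not tested, since each is 1 preparation whose group no label gives. Library 3 had the sign of library 4, at 1.01, and library 2 was at -0.03 with an interval that held 0. In thinned cells of library 2, Marco was nevertheless higher at 2 and at least 3 Folr2 UMIs (207 and 239 CPM) than at 0 (148 CPM).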

How the results depend on the processing

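No paired analysis was possible because each group has 1 sample and no barcode suffix is tied to a sample. Across 24 alternatives, 126 counts of members past a rule stayed at their value and 8 moved; across 21, 591 member ratios moved by less than 1 SD between libraries and 9 by more. The count of members higher in Timd4-positive cells went to 0 with gates set on thinned counts (Marco at 3.99, 3.10, 0.84 and 1.03) and to 0 with the mean of per-cell CPM (2.75, 2.87, 0.99 and 1.21), so that library 3 decided it. The count higher in Folr2-positive cells was 1, Stab1, at a mitochondrial limit of 5% (1.47, 1.95, 1.06 and 1.02) and 1 within Timd4-negative macrophages, an alternative chosen after seeing the data. The count of pairs past the rule of odds was 1, Marco and Cd5l, with thinning to 2000 UMIs, with a second random draw and with Adgre1 of at least 3, and it ranged between 0 and 1 when 1 library was left out, with 1 without library 1. Leaving out any 1 library changed no count of members past the rule of size: it was 1 for higher by Timd4 and lower by Ccr2, and 0 for the other 4 counts. The median Marco ratio for Ccr2 lay between -3.58 (cells of 1 gate only) and -1.77 (thinned gates). Of the shares of macrophages with a UMI, 39 of 40 moved beyond their intervals with thinning to 2000 UMIs, which lowers every share by its construction, and 4 with the second draw. Depth limits Colec12 in every library, and Stab1 in libraries 2, 3 and 4.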
